A study of Mus musculus with 4 samples.

Results

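CD200 is a surface protein of the immunoglobulin superfamily that binds CD200R1, an inhibitory receptor of myeloid cells. CD200R1 carries no ITIM, the usual inhibitory motif. Its phosphorylated tail instead recruits the docking proteins DOK2 and DOK1, which bring in the Ras GTPase-activating protein RASA1 and dampen the Ras to MAP kinase cascade. The mouse genome holds related receptor genes beside Cd200r1, whose products lack the inhibitory tail and pair with the activating adaptor DAP12, the product of Tyrobp.

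The 10 genes described here are Cd200, Cd200r1, Cd200r2, Cd200r3, Cd200r4, Dok1, Dok2, Dok3, Rasa1 and Inpp5d, which encodes the lipid phosphatase SHIP1. They were chosen by symbol, and all 10 were present among the 23420 genes of the table. RNA-seq libraries came from myeloid cells sorted for CD11b and CD200R1 from orthotopic cutaneous squamous cell carcinomas (cSCC) of FVB/N mice. The 2 WT libraries are of wild-type genotype, and the 2 EpiKO libraries are of genotype K14Cre;CD200fl/fl, in which Cre recombinase under the keratin 14 promoter deletes floxed Cd200 in keratinocytes and other cells that use this promoter. The labels give neither age, sex nor pooling of mice, and do not say whether the 2 libraries of a group came from separate animals. P-values therefore measure only the spread between these libraries, which may be technical.

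Between 15884132 and 21244158 gene-assigned reads stood behind each library. Values are normalised read counts, in which 1 read is worth 0.841 to 1.16, given per library as replicate 1 and then replicate 2. The sorted identity was visible in the RNA: Itgam, which encodes CD11b, had WT values of 26151 and 26738 and EpiKO values of 40692 and 30075. Of the macrophage genes Lyz2, Csf1r and Cd14, the lowest value in any library was 34027. WT replicate 1 stood apart by keratinocyte genes, with 10 markers summing to 5245, whereas the sum was 113 for WT replicate 2 and 65.7 and 52.9 for EpiKO.

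**Figure D1:**
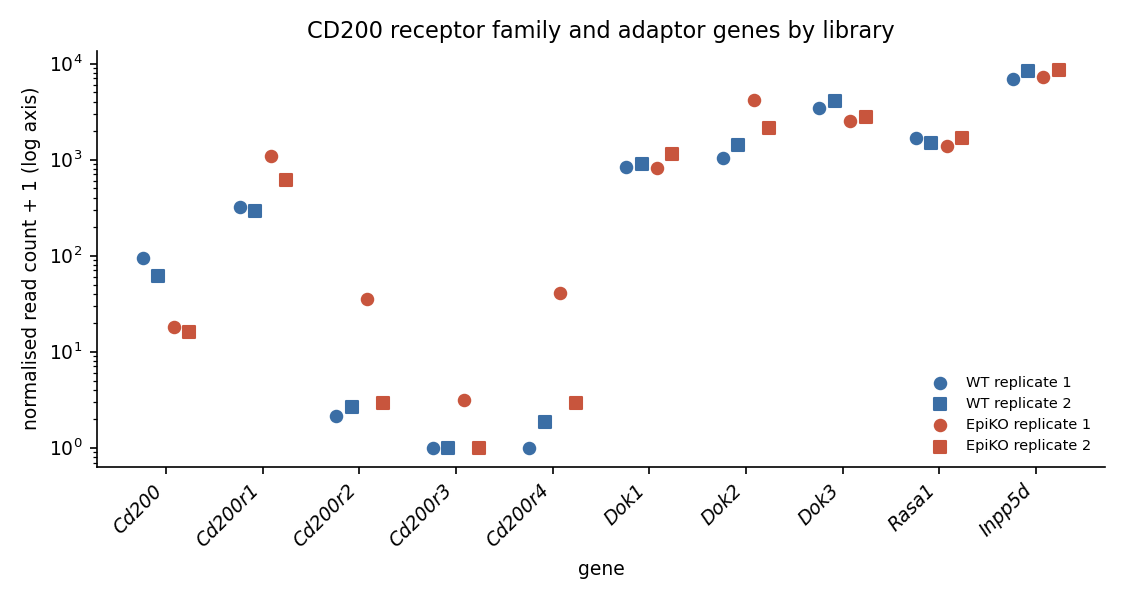
Normalised read count plus 1, on a log axis, of the 10 genes in each of the 4 libraries; each point is 1 library. Cd200 lies lower and Cd200r1 and Dok2 lie higher in both EpiKO libraries, while Cd200r2 and Cd200r4 leave the floor only in EpiKO replicate 1, at 34.4 and 39.8.

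None of the 10 genes passed the limma test across all genes, and Cd200, Cd200r1 and Dok2 had log2 fold changes beyond 1 in size. EpiKO was compared with WT by limma on log2(value + 1), with Benjamini-Hochberg adjustment over the 12463 genes that reached a value of 10 in 2 or more libraries. Of the 10 genes 7 passed this filter and 0 were called at an adjusted p under 0.05, where 0.947% of all tested genes were called (0.417% higher and 0.53% lower in EpiKO). At an unadjusted p under 0.05, limma counted 4 of the 7, against 15.6% of all tested genes. edgeR on the recovered reads also called 0, against 0.842% of all tested genes (0.385% higher and 0.457% lower). DESeq2 called 3 against 6.85% of all tested genes, namely Cd200r1 and Dok2 higher (background 3.73%) and Cd200 lower (background 3.12%). The groups did not overlap for 4 of the 7, against 47.1% of tested genes, with 2 higher (background 23.3%) and 2 lower (background 23.8%). The median log2 fold change was 0.054 over the 7 and -0.0021 over all tested genes. The call rests on sharing the spread across genes, since exact permutation of 2 against 2 libraries allows no p under 0.33.

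The ligand gene Cd200 was scarce and lower in EpiKO in both libraries. The WT libraries had 92.7 and 59.7 and the EpiKO libraries 17.2 and 15.1, from 80, 71, 16 and 16 reads. Both EpiKO libraries lay below both WT libraries, and the EpiKO pair was nearly equal. The log2 fold change was -2.14 (SE 0.371, 95% interval -3.08 to -1.19), which did not pass by limma (adjusted p = 0.0794). From pooled reads the WT level was 4.57 times the EpiKO level (95% interval 3.10 to 6.92, counting error only), and DESeq2 called the gene lower (adjusted p = 0.00323, against 0.0693 to 0.301 over the limma and edgeR alternatives). Of the tested genes, 2.25% had a larger absolute log2 fold change. The gene lies on the minus strand of chromosome 16 of mm10, from 45382135 to 45409053.

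The cells were sorted as myeloid and the deletion is driven from the keratin 14 promoter, so Cd200 reads here are no direct check of the genotype labels, and the part of Cre deletion in the difference was not tested. In bulk RNA, fewer cells carrying a transcript and less of it per cell cannot be told apart. Cd200 is known from endothelium, activated lymphocytes and keratinocytes, and markers of these were read as well. Keratinocyte markers moved with WT replicate 1: Krt14 was at 1907 there and at 28.6 in WT replicate 2, against 8.61 and 18.9 in EpiKO. Krt5 and Krt10 were at 736 and 531 in WT replicate 1 and at or below 20.2 in each other library. WT replicate 2 had 59.7 of Cd200 with a keratinocyte sum of 113, which was above the EpiKO sums of 65.7 and 52.9. Without WT replicate 1 the log2 fold change of Cd200 was -1.82. The part of keratinocytes in the Cd200 difference was not tested.

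The 8 endothelial markers had WT sums of 407 and 298 and EpiKO sums of 332 and 364, so the groups overlapped. Pecam1 and Cdh5 had higher values in EpiKO, at 104 and 117 against 73.0 and 53.8 for Pecam1, whereas Kdr had lower values in EpiKO, at 36.6 and 23.6 against 76.5 and 59.7 (log2 fold change -1.17, SE 0.358, limma adjusted p = 0.215). Cldn5, at no more than 5.80 in any library, was also lower without overlap, and Tie1, Vwf, Tek and Emcn overlapped between the groups. T and NK cell markers summed to between 160 and 1878, most of it Cd4, a gene that macrophages can also carry. Cd3d, Cd3e and Cd3g had values of at most 2.32, and Cd8a was at 0 in every library. The 6 B cell markers had WT sums of 89.2 and 82.4 and EpiKO sums of 26.9 and 81.3. The EpiKO sums were lower without overlap, but those of WT replicate 2 and EpiKO replicate 2 were nearly equal. Most of each sum was Cd79b, with 76.5 and 70.6 in the WT libraries against 19.4 and 61.4 in EpiKO (log2 fold change -1.06, SE 0.578, limma adjusted p = 0.472), and Pax5 was at 0. Their part in the Cd200 difference was not tested.

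The receptor gene Cd200r1 had higher values in both EpiKO libraries. The WT values were 318 and 293 and the EpiKO values 1101 and 612, from 274, 348, 1023 and 648 reads. The WT libraries were close to each other, whereas EpiKO replicate 1 was well above EpiKO replicate 2. The EpiKO mean of 857 ± 346 (SD, n = 2) was 2.81 times the WT mean of 305 ± 17.7 (SD, n = 2). The log2 fold change was 1.43 (SE 0.293, 95% interval 0.67 to 2.18) and missed the threshold by limma (adjusted p = 0.115). DESeq2 called it higher (adjusted p = 0.000244, against 0.0734 to 0.383 over the limma and edgeR alternatives). CD200R1 protein was a criterion of the sort, so these are levels within cells that all passed that gate, and where the gate was set is not given in the sources used here. Leaving out EpiKO replicate 1 gave a log2 fold change of 1.00 (adjusted p = 0.152 by limma). Cd200r1 lies on the plus strand of chromosome 16 of mm10, from 44765736 to 44794978.

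The genes Cd200r4 and Cd200r2 were near 0 in 3 libraries and above the floor of 3 reads in EpiKO replicate 1 alone. Cd200r4 had 0 and 1 reads in the WT libraries against 37 and 2 in EpiKO. Cd200r2 had 1 and 2 reads in the WT libraries against 32 and 2 in EpiKO. EpiKO replicate 2 was as low as the WT libraries for both genes. The genes lie on the plus strand of mm10, Cd200r4 at chr16:44811733-44839150 and Cd200r2 at chr16:44867097-44915840. Cd200r3, at chr16:44943678-44981380, which in mouse marks basophils and mast cells, had 2 reads in EpiKO replicate 1 and 0 in the other libraries. A count of 3 reads, the limit that a count of 0 allows, stands for a value of 2.52 to 3.48, so Cd200r3 was not detectable above that limit in any library.

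These 3 genes failed the filter and were not tested in the main comparison. With no filter, limma put Cd200r4 at 3.0 on the log2 scale (SE 1.33, adjusted p = 0.415) and Cd200r2 at 2.07 (SE 1.23, adjusted p = 0.566). Over pooled reads the EpiKO to WT ratio was 40.3 for Cd200r4 (95% interval 6.82 to 1631) and 11.7 for Cd200r2 (95% interval 3.68 to 59.6). These intervals cover counting error only, and both ratios rest on EpiKO replicate 1. Without that library, 2 reads of each gene in EpiKO stand against 1 read of Cd200r4 and 3 of Cd200r2 in WT.

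Receptor genes of this cluster share coding sequence, which bears on how reads could be assigned. Below is a window of 90 coding bases of Cd200r1 with its best matching stretch in Cd200r4 and Cd200r2, from GENCODE M21 transcripts on mm10, 5′ to 3′. Capitals mark bases that do not match Cd200r1 in the alignment. The Cd200r2 stretch also lacks a few bases of Cd200r1, and that gap is not marked.
Cd200r1: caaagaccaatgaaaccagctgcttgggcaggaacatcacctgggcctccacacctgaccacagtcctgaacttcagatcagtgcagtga
Cd200r4: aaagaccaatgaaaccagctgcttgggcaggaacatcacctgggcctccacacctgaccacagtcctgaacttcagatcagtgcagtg
Cd200r2: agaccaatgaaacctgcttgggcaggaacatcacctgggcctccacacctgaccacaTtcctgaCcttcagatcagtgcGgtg

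The 88 bases of Cd200r4 match Cd200r1 without a difference, and 80 bases of Cd200r2 match, while the best Cd200r3 stretch matched 55 of the 90. The longest identical run in coding sequence was 110 bases between Cd200r4 and Cd200r2. Over whole transcripts, 2.2% of the 50-base words of Cd200r1 occur in any other gene, 5.78% of those of Cd200r4 and 4.35% of those of Cd200r2. Cd200, the Dok genes, Rasa1 and Inpp5d share none in the transcripts used. The treatment of reads with several alignments is not given in the sources used here, so Cd200r4 and Cd200r2 levels are uncertain to that extent.

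Relative to Cd200r1 reads, those of Cd200r4 were highest in EpiKO replicate 1, the library already picked out by its Cd200r4 count. The intervals given here are therefore no separate test of that library. Cd200r4 reads made up 3.49% of the reads of both genes in EpiKO replicate 1 (exact binomial 95% interval 2.47% to 4.78%, counting error only). In EpiKO replicate 2 the share was 0.308% (95% interval 0.0373% to 1.11%), in WT replicate 2 it was 0.287% (95% interval 0.00725% to 1.59%), and in WT replicate 1 it was 0 with an upper bound of 1.34%. The interval of EpiKO replicate 1 lies above those of the other libraries. Per 100 Cd200r1 reads, Cd200r4 had 1.96 ± 2.34 reads in EpiKO and 0.144 ± 0.203 in WT (SD, n = 2; exact two-sided permutation p = 0.33, the smallest the design allows).

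The starts of these genes are shown because Cd200r4 and Cd200r2 were high in the same library while Cd200r3 was not. Each RefSeq window runs from 250 bases before to 50 bases after the annotated start on GRCm38.p6, plus strand, 5′ to 3′, at chr16:44820478-44820777 for Cd200r4, chr16:44943428-44943727 for Cd200r3 and chr16:44866847-44867146 for Cd200r2. Capitals in Cd200r4 and Cd200r3 mark words of 12 bases that both windows hold.
Cd200r4: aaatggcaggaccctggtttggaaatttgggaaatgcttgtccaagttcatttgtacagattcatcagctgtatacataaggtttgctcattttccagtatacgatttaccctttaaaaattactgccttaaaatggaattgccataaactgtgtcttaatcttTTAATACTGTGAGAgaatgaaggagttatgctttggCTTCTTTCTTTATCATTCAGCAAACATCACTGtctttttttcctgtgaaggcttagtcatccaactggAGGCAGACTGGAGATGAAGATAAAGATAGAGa
Cd200r3: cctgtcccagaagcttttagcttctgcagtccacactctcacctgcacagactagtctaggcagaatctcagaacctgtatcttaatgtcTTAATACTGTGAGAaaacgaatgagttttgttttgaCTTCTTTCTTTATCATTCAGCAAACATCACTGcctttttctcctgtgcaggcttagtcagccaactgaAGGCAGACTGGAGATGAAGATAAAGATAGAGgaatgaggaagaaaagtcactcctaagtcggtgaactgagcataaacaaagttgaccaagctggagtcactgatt
Cd200r2: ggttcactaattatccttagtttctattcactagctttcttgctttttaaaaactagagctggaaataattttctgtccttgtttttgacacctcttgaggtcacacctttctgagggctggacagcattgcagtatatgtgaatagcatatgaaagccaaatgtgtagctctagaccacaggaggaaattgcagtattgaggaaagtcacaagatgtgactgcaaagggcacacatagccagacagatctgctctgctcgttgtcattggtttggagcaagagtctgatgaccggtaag

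Of the 300 bases, 77 in Cd200r4 and 77 in Cd200r3 lie in words held by both windows. Cd200r2 holds no 12-base word of the Cd200r4 window. The RefSeq start used for Cd200r4 lies inside the gene, downstream of its first base at 44811733 in GENCODE M21 and at 44811650 in RefSeq. Whether these sequences bear on the read counts was not tested.

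**Figure D2:**
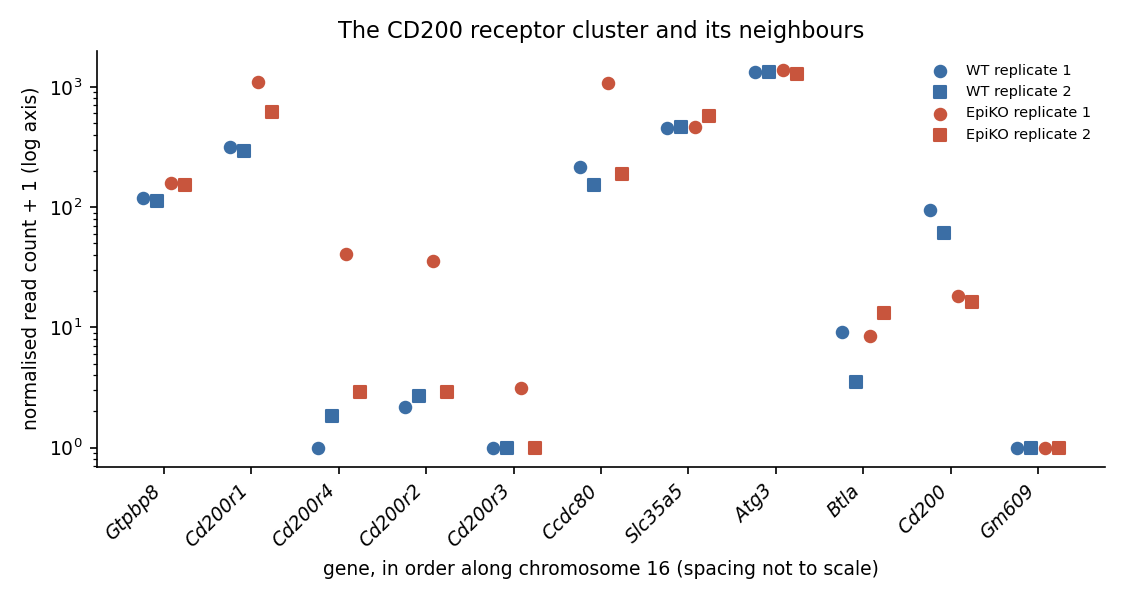
Normalised read count plus 1, on a log axis, of the genes from Gtpbp8 to Gm609 in their order along chromosome 16; each point is 1 library and spacing is not to scale. EpiKO replicate 1 stands apart at Cd200r4, Cd200r2 and Ccdc80, whereas Atg3 is level across the libraries. Slc35a5 is highest in EpiKO replicate 2, at 571.

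The receptor genes lie side by side on chromosome 16, and Cd200 lies further along it, so neighbouring genes were read as well. Ccdc80, which encodes a secreted matrix protein and follows Cd200r3, had WT values of 213 and 150 against 1069 and 186 in EpiKO. Like Cd200r4 and Cd200r2 it was high in EpiKO replicate 1 alone, and its groups overlapped (log2 fold change 1.31, SE 0.827, limma adjusted p = 0.545). Ccdc80 is known from fibroblasts. The 8 fibroblast markers summed to 19259 in that library and to 21938 to 32680 in the others, with the collagen genes Col1a1, Col1a2 and Col3a1 the highest. Pdgfra and Pdgfrb of the same list were at 723 and 322 there, above both WT libraries and below EpiKO replicate 2 at 1014 and 492. The part of fibroblasts in the Ccdc80 values was not tested. Gtpbp8, on the other side of Cd200r1, was at 0.43 on the log2 scale (SE 0.187, limma adjusted p = 0.366). Slc35a5 and the autophagy gene Atg3, between Ccdc80 and Cd200, had 0.17 (SE 0.145) and 0.015 (SE 0.104). Gtpbp8 and Slc35a5 were higher in EpiKO without overlap, as were 23.3% of all tested genes, and Atg3 overlapped between groups. Btla, which encodes an inhibitory receptor of lymphocytes, had values of at most 12.3, and Gm609 was at 0 in all libraries. These neighbours were picked by position.

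EpiKO replicate 1 had 33 genes with a value of at least 10 and at least 5 times that of every other library. This is 0.271% of the 12190 genes at that level there, against 127 such genes in WT replicate 1, 7 in WT replicate 2 and 11 in EpiKO replicate 2. Cd200r4, Cd200r2 and Ccdc80 are among the 33. So are Chi3l3, a chitinase-like gene of alternatively activated macrophages, at 39879 against at most 2421 elsewhere, and the ribonuclease gene Ear1, at 2224 against at most 39.7. Chi3l3 and Ear1 were chosen after their values were seen. The 33 also include the mast cell protease gene Mcpt2, at 26.9 against at most 2.84 elsewhere, likewise chosen after its values were seen.

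The 12 basophil and mast cell markers had WT sums of 748 and 693 and EpiKO sums of 546 and 508. Il3ra was the highest of them in each library. Mast cell protease genes of the list were highest in WT replicate 1 and next in EpiKO replicate 1. Tpsb2 was at 115 and 42.0 in these libraries, Mcpt4 at 47.5 and 31.2, Cpa3 at 42.9 and 15.1 and Cma1 at 30.1 and 17.2, and each was at or below 5.67 in WT replicate 2 and EpiKO replicate 2. Kit, Hdc, Il3ra and Ms4a2 had lower values in both EpiKO libraries and Gata2 higher ones, while Mcpt8 and Fcer1a were at or below 1.08 and Prss34 was at 0.

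Neutrophil markers summed to 4516 in EpiKO replicate 1, most of it from Mmp8 at 3757. The other libraries had sums of 1535, 3008 and 2433. Mmp8 was also higher in EpiKO replicate 2, at 847, than in the WT libraries, at 167 and 222. Retnlg was lower in EpiKO, at 7.54 and 20.8 against 55.6 and 166, and the other genes read from this list overlapped between groups. Csf3r, the receptor of the growth factor G-CSF, was lowest in EpiKO replicate 1 at 514, and S100a9 was at 38.8 there. Dendritic cell markers summed to 1054 in EpiKO replicate 1 and to between 888 and 2104 in the others. Most of each sum was Itgax, at 951 in EpiKO replicate 1. Ccr7 was lower in EpiKO, at 32.3 and 35.9 against 116 and 56.3 (log2 fold change -1.22, SE 0.419, limma adjusted p = 0.258). Flt3, at no more than 46.2 in any library, was also lower without overlap, and the other genes of this list overlapped between groups. Whether any of these cells carried the Cd200r4 and Cd200r2 reads was not tested, nor was the part of dendritic cells in the Cd200 difference.

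**Figure D3:**
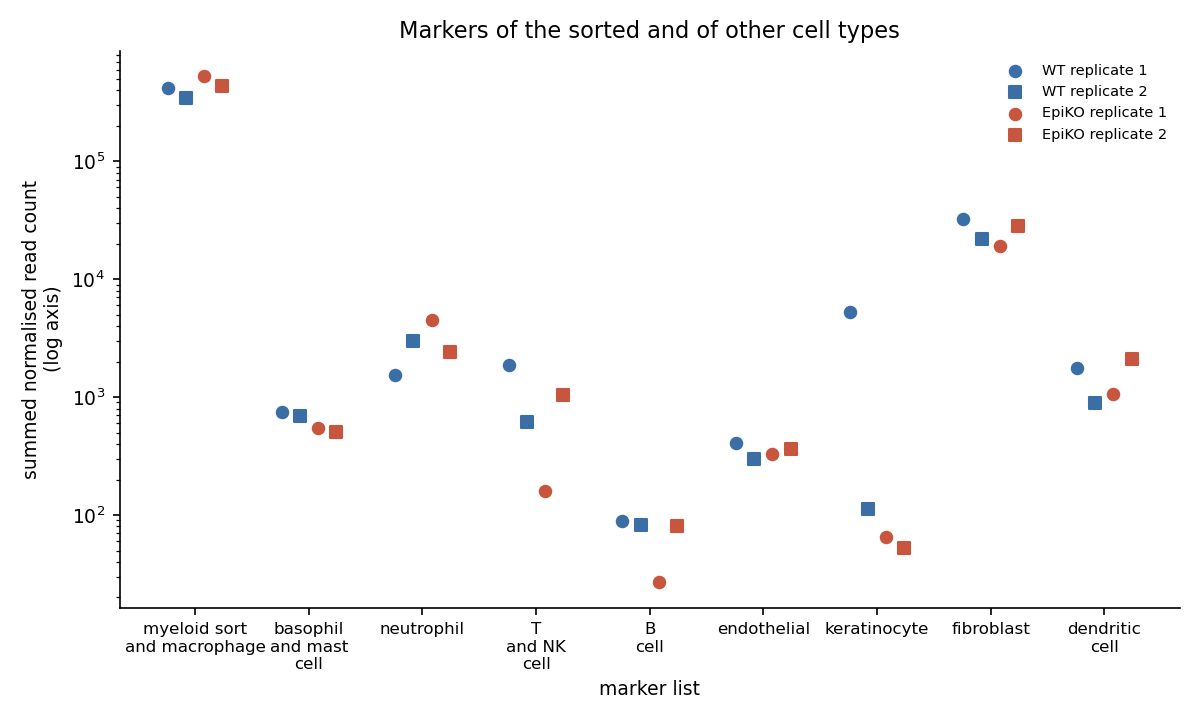
Summed normalised read count, on a log axis, of 9 marker lists in the 4 libraries; each point is 1 library. Keratinocyte markers stand out in WT replicate 1 at 5245, and the sorted macrophage genes exceed each other list in all libraries.

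The adaptor genes of the Dok family differed in the direction of their values. Dok2, which links CD200R1 to RASA1, had 1042 and 1406 in the WT libraries against 4211 and 2156 in EpiKO. Both EpiKO libraries exceeded both WT libraries, again with replicate 1 on top. The log2 fold change was 1.31 (SE 0.351, 95% interval 0.41 to 2.22), not past the threshold by limma (adjusted p = 0.180), and DESeq2 called it higher (adjusted p = 0.00152, against 0.0982 to 0.555 over the limma and edgeR alternatives). Without EpiKO replicate 1 it was 0.83 (adjusted p = 0.258 by limma). Per kilobase of transcript, Dok2 and Dok1 had mean WT levels of 682 and 483 and mean EpiKO levels of 1774 and 544.

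Dok1, which also binds the receptor tail, showed no shift beyond the spread. WT had 839 and 905, EpiKO 824 and 1141, so the groups overlapped. The log2 fold change was 0.15 (SE 0.181, 95% interval -0.31 to 0.61, adjusted p = 0.766 by limma). Dok3, an adaptor of myeloid and B cells that recruits SHIP1, had lower values in EpiKO, at 2531 and 2793 against 3425 and 4116. Its log2 fold change of -0.50 (SE 0.138, 95% interval -0.85 to -0.15) did not pass (adjusted p = 0.183 by limma), and DESeq2 did not call it either (adjusted p = 0.0669). Whether Dok2 and Dok3 differ in their change was not tested. On mm10 Dok1 lies at chr6:83030934-83033471 (minus strand), Dok2 at chr14:70766036-70778495 (plus strand) and Dok3 at chr13:55523231-55529296 (minus strand).

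The effector genes Rasa1 and Inpp5d differed by less than the spread between libraries. Rasa1 had WT values of 1663 and 1478 and EpiKO values of 1394 and 1695, with overlapping groups and a log2 fold change of -0.029 (SE 0.142, 95% interval -0.39 to 0.33, adjusted p = 0.951 by limma). For Inpp5d the WT libraries gave 6921 and 8361 and the EpiKO libraries 7216 and 8643, which overlap. Its log2 fold change was 0.054 (SE 0.159, 95% interval -0.35 to 0.46, adjusted p = 0.915 by limma). For both genes the interval reaches less than 0.5 in either direction, so larger shifts lie outside it. Rasa1 lies at chr13:85214780-85289130 (minus strand) and Inpp5d at chr1:87620312-87720507 (plus strand). Rasa1 shares 12 of its 7320 exon bases with Ccnh on the other strand, and no other member shares exon bases with another gene in GENCODE M21.

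Per kilobase of its longest coding transcript, Dok3 was the most abundant of the 10 in WT, with a mean level of 2294. It was followed by Inpp5d at 1548, Dok2 at 682, Dok1 at 483, Rasa1 at 344, Cd200r1 at 161 and Cd200 at 32.5, and no 2 neighbours among these overlapped between libraries. In EpiKO the mean levels were 1774 for Dok2, 1619 for Dok3 and 1606 for Inpp5d, whose libraries overlapped. Dok1 at 544, Cd200r1 at 453 and Rasa1 at 338 also overlapped with their neighbours in that order. Cd200r1 was below Rasa1 in WT without overlap, whereas the ranges of these genes overlapped in EpiKO. Cd200r4, Cd200r2 and Cd200 followed at 11.6, 10.4 and 6.89, with overlapping libraries, and Cd200r3 was last. In EpiKO replicate 2 Cd200 was the highest of these at 6.44, with Cd200r2 at 1.08 and Cd200r4 at 1.05.

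**Figure D4:**
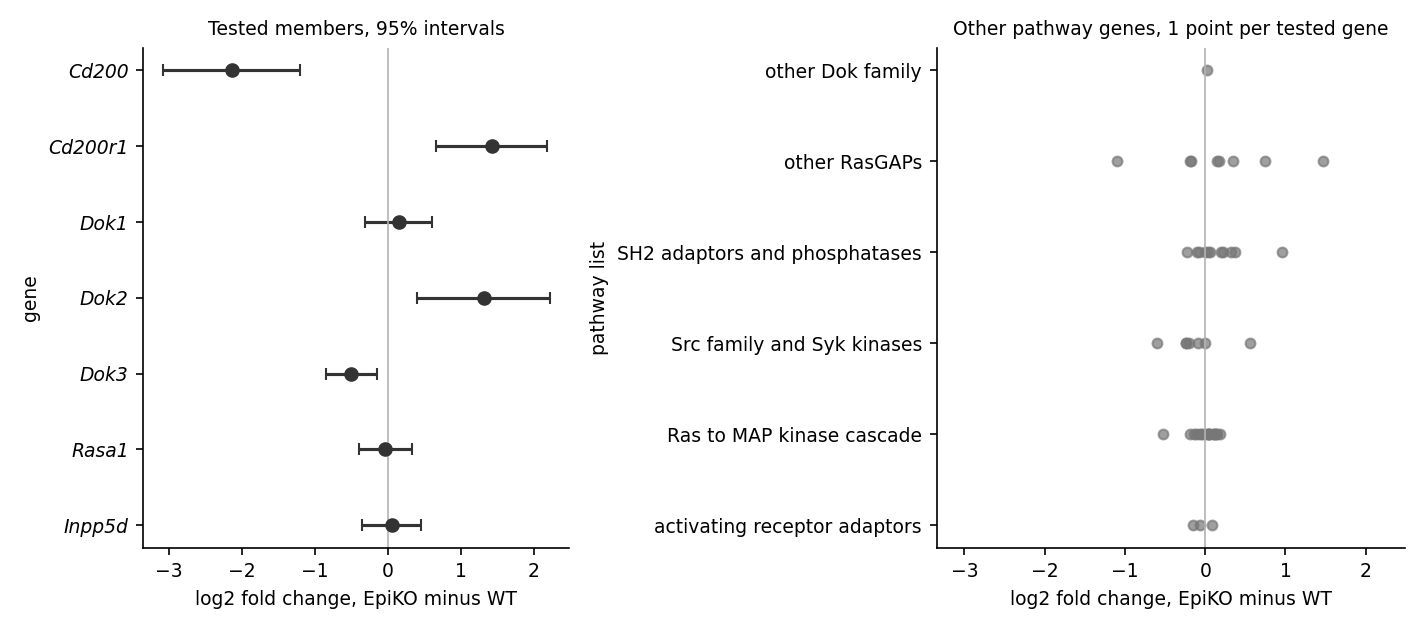
Left, log2 fold change of EpiKO over WT with 95% intervals from limma for the 7 tested genes; right, the same quantity for other pathway genes, 1 point per tested gene in 6 lists. Cd200 is at -2.14 and Cd200r1 and Dok2 are at 1.43 and 1.31, while the MAP kinase cascade genes stay between -0.53 and 0.18.

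Other genes of the pathway were read from 6 lists. Of 54 genes listed 48 were tested. Of these limma called 0 higher and 0 lower, against 0.417% higher and 0.53% lower of all tested genes. At an unadjusted p under 0.05, limma counted 7 of the 48, against 15.6% of all tested genes. Groups did not overlap for 17 higher and 11 lower of the 48, against 23.3% higher and 23.8% lower of all tested genes. The 18 tested genes from Ras to the MAP kinases had a median log2 fold change of 0.037 and lay between -0.53 and 0.18. The lowest was Map2k3, the kinase upstream of p38, with 2077 and 1700 (WT) against 1376 and 1239 (EpiKO; limma adjusted p = 0.173). Mapk3, which encodes ERK1, and Mapk9, which encodes JNK2, had log2 fold changes of 0.13 and 0.18.

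Ras GTPase-activating proteins other than Rasa1 spread more widely, from -1.10 to 1.47, with a median of 0.16 over 8 tested genes. Rasa4, which responds to calcium, had 2687 and 3157 in the WT libraries against 1196 and 1540 in EpiKO. Its log2 fold change was -1.10 (SE 0.167, limma adjusted p = 0.0615). Dab2ip was at 67.2 and 43.7 against 150 and 154, and Rasal3, known from haematopoietic cells, at 598 and 713 against 933 and 1274. Their log2 fold changes were 1.47 (SE 0.286, adjusted p = 0.0975 by limma) and 0.74 (SE 0.190, adjusted p = 0.164 by limma). None of the 3 passed, and for each the groups did not overlap, against 47.1% of all tested genes. The 3 were named for the smallest p of their list, so the lack of overlap is no separate result.

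The 11 SH2 adaptors and phosphatases had a median of 0.059 and lay between -0.23 and 0.95. On the log2 scale the fold change was 0.95 (SE 0.337) for the adaptor Nck2 and 0.37 (SE 0.099) for Shc1, and for Inppl1, which encodes SHIP2, it was 0.32 (SE 0.169). The 7 Src family and Syk kinases had a median of -0.20 and lay between -0.60 and 0.55. Src was at -0.60 (SE 0.262), Syk at -0.24 (SE 0.106) and Fyn at -0.24 (SE 0.133), while Yes1 was the highest at 0.55 (SE 0.398). Among adaptors of activating receptors, Tyrobp had WT values of 16191 and 14843 against 14218 and 13611 in EpiKO (limma adjusted p = 0.633). The log2 fold change was 0.084 (SE 0.128) for Fcer1g and -0.059 (SE 0.236) for Hcst. The remaining Dok genes were Dok4, at 60.3 and 60.5 (WT) and 68.9 and 54.8 (EpiKO), and Dok5, Dok6 and Dok7, which were at 0 in every library.

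The genes most like Cd200r1 over the 4 libraries, by Euclidean distance of centred log2(value + 1) among 12456 genes, were Akap7, Ptgs2 and Ccl2, at distances of 0.086, 0.13 and 0.14. Ptgs2, which encodes the inducible cyclooxygenase, had 2715 and 2735 in the WT libraries against 9413 and 5097 in EpiKO. For the chemokine gene Ccl2 the log2 fold change was 1.37 (SE 0.236, limma adjusted p = 0.0817). Most like Cd200 were Ptgfr, Tnfsf15 and Mecom, at distances of 0.096, 0.15 and 0.22. Tnfsf15, a ligand of the tumour necrosis factor family, had 55.6 and 39.5 in the WT libraries against 9.69 and 8.51 in EpiKO. With 4 libraries such likeness describes these libraries only.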

How the data were processed

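RNA was read from 2 WT and 2 EpiKO libraries of sorted tumour myeloid cells, made from poly-A RNA with an Illumina TruSeq kit, per the labels' protocols. The submitters' processing notes name STAR 2.5.2b, featureCounts 1.5.0-p3, bcl2fastq 2.17, DESeq2 and build mm10. Annotation and strand setting: not given in the sources used here. Each value of the deposited signal is a gene's read count scaled by the authors with a single size factor for each library. The values themselves show this, since 100% were whole multiples of 1 read within 1e-06 reads.

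Values were tested with limma 3.58.1 (trend, robust) in R 4.3.3 on log2(value + 1), which understates the change of low genes. Count tests on the recovered reads, with edgeR 4.0.16 (quasi-likelihood, TMM) and DESeq2 1.42.0, were alternatives. All tests are two-sided. Fold changes are EpiKO minus WT, SE is the moderated standard error, and 95% intervals are limma's, unadjusted. Read ratios use exact conditional binomial intervals, and PCR reads counted without molecular identifiers do not stand for independent molecules. Because Cd200r4 had a count of 0 in WT replicate 1, its planned log ratio to Cd200r1 was replaced by reads per 100 Cd200r1 reads. Lengths, coordinates and exon overlap are from GENCODE M21, and RefSeq start windows were found for 7 of the 10 genes. Sequences were aligned with Biopython 1.88.

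The members and lists were chosen with earlier results of these data known. The text names all members, up to 3 genes of each pathway list by smallest p, up to 3 of each marker list by mean value, and the 3 genes most like Cd200r1 and Cd200. Of the other names, those in the locus were picked by position, and Itgam, the markers given at or near 0 and those outside this rule after their values were seen. Listed pathway genes without a row, 2 in all, were not analysed here. Replicate numbers follow sample order.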

Additional observations from a re-analysis of the deposited data

How the results depend on the processing

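No paired analysis was possible because replicate numbers follow sample order and the labels pair no libraries. With all 4 libraries limma called 118 genes (52 higher, 66 lower) and 0 of the 7 tested members. The count of genes was 38 without trend and robust moderation, 854 by DESeq2, 428 at an adjusted p threshold of 0.1, and between 0 and 4 when any 1 library was left out. Those fits leave a lone library in 1 group, whose spread is assumed to equal that of the other group. The count of members was 3 of 7 by DESeq2, against 854 of all 12463 tested genes. At the threshold of 0.1 it was 1 of 7, Cd200, against 428 of the 12463. By DESeq2 the log2 fold changes were -2.23 for Cd200, 1.49 for Cd200r1 and 1.38 for Dok2. In all limma and edgeR alternatives these 3 and Dok3 kept their direction and stayed above an adjusted p of 0.05, with ranges of 0.0693 to 0.301 for Cd200, 0.0734 to 0.383 for Cd200r1, 0.0982 to 0.555 for Dok2 and 0.175 to 0.466 for Dok3. Leaving out 1 library gave log2 fold changes of -2.45 to -1.82 for Cd200 and 1.00 to 1.85 for Cd200r1. It turned the sign of genes near 0, with ranges of -0.082 to 0.39 for Dok1, -0.17 to 0.11 for Rasa1 and -0.082 to 0.19 for Inpp5d. The difference in Cd200r4 reads per 100 Cd200r1 reads was 1.82, and 0.165 to 3.47 when a library was left out, with the lowest value without EpiKO replicate 1. Low reads limit Cd200 and the receptors other than Cd200r1.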
